A study of Homo sapiens with 12 samples.

Results

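The 8 genes described here encode the sensors and proteases of the IRE1 and ATF6 branches of the unfolded protein response, together with a pair of transcription factors built like ATF6. They are ERN1, XBP1, ATF6, ATF6B, MBTPS1, MBTPS2, CREB3, and CREB3L2. They were chosen by gene symbol among the 60708 genes of the count tables, and all 8 had enough counts to be tested. RNA was sequenced from HCT116, an established line of human colorectal carcinoma cells, labelled wild type and kept for 24 h with DMSO, oligomycin A (OA), or tunicamycin (TN). OA blocks the mitochondrial ATP synthase, and TN blocks the first step of protein N-glycosylation, so that unfolded proteins build up in the endoplasmic reticulum (ER). Each stressor had 3 treated replicates and a separate set of 3 DMSO replicates, 12 libraries in all. The labels state 5 µg/mL for both stressors, whereas the methods of the study name a higher concentration for OA, so the dose of OA is not settled here. All libraries came from a single cell line, and the labels call the replicates biological without saying how their cultures were separated.

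Stress in the ER is read by membrane proteins whose sensing part lies in the ER lumen. ERN1 encodes IRE1, a kinase and ribonuclease that, once active, cuts a short intron out of the XBP1 mRNA in the cytoplasm. The ligated mRNA encodes the active transcription factor XBP1s, which drives genes of ER protein folding, transport, and degradation. ATF6 and its relative ATF6B are transcription factors held in the ER membrane. Under stress they travel to the Golgi, where the site-1 protease (encoded by MBTPS1) and the site-2 protease (encoded by MBTPS2) cut them in turn and free a fragment that enters the nucleus and drives ER chaperone genes. CREB3 and CREB3L2 encode membrane-held factors that the same proteases release. These steps act on proteins and on mRNA processing, whereas the counts here measure only how much RNA of each gene was present. In RNA from whole cultures, fewer cells of a kind and less RNA per cell cannot be told apart.

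The stretch that IRE1 removes lies within coding exon 4 of XBP1 at chr22:28796127-28796152 on the minus strand of hg38. It is shown, read from an annotated (Gencode) transcript of XBP1, because counts per gene add up both forms of this mRNA. The capitals mark the 26 bases between the cuts, which fall in a pair of stem loops with the letters CNGCAGN, and the lower case marks 30 coding bases on each side. The next sequence is the joined form, which another annotated transcript of XBP1 holds.
XBP1 before ligation: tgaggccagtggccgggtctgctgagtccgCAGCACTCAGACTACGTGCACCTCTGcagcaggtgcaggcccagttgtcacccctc
XBP1 after ligation: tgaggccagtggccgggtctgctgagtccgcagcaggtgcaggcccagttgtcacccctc
A read counted for XBP1 outside this stretch can come from either form, so the XBP1 values below give the total mRNA and say nothing on how much of it IRE1 had cut.

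All 8 genes were found in the RefSeq promoter windows of GRCh38.p14, which reach from 250 bases before to 50 bases after a start site, in 10 windows. They were searched on both strands for the ER stress response element (ERSE), spelled CCAAT and CCACG with any 9 bases between them, which ATF6 binds together with the factor NF-Y. Of the 8 genes, 1 held it, XBP1, against 0.0769% of all 35116 windows. The cAMP response element TGACGTCA was found in CREB3L2 alone of the 8, against 1.85% of all windows. The shorter variant ERSE-II, spelled ATTGG and CCACG with any base between them, and the core of the XBP1-binding element, TGACGTGG, were in none of the 8, against 0.0541% and 0.729% of all windows. None of these motifs contains another whole. Among the targets described further on, the ERSE was in 4 of 10 ATF6 targets and in 2 of 11 XBP1 targets. The XBP1-binding core was in 0 of these 11, of which 10 had windows. The bases upstream of the start sites of XBP1, at chr22:28800598-28800819, and of CREB3L2, at chr7:138002087-138002336, both on the minus strand, are printed in the direction of transcription with the match in capitals. Below them stand the ERSE matches of HSPA5 (chr9:125241383-125241424, minus strand) and PDIA6 (chr2:10812840-10812886, minus strand), genes of ER protein folding whose values are given further on.
XBP1: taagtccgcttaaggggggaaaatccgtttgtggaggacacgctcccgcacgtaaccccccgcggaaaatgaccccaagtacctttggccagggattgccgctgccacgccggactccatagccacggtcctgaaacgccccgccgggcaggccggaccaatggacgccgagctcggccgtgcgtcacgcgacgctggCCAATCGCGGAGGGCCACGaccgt
CREB3L2: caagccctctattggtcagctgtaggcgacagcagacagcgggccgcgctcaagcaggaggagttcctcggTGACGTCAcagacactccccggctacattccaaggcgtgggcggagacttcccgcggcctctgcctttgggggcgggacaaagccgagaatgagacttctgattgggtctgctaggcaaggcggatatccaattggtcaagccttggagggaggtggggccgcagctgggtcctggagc
HSPA5: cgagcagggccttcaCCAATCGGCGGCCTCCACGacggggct
PDIA6: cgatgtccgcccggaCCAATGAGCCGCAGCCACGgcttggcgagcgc
The ERSE of XBP1 runs from 52 to 34 bases before the RefSeq start site and that of HSPA5 from 66 to 48. A match is a description of the letters in these windows, and binding was not measured.

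Library totals ranged from 9884124 to 24983573 counts, and the 8 genes had between 30 counts (MBTPS2) and 4113 counts (MBTPS1) per library. The noncoding RNA RN7SL1 took 6.02% to 17.9% of the counts, most in OA replicate 2 (17.9%) and TN replicate 1 (13.3%). In both experiments, every treated library held a larger share than every DMSO library. With OA it was at least 8.40% against at most 8.11%, and with TN at least 9.22% against at most 7.50%. In OA replicate 2, genes in the tenth of lowest GC content lay 0.72 below their group mean on the log2 scale and those in the tenth of highest GC content 0.30 above it. In TN replicate 1, these values were 1.00 below and 0.55 above. OA replicate 1 went the other way, at 0.79 above and 0.33 below. In the tenth of lowest GC content, the DMSO libraries of OA lay between 0.59 below and 0.56 above. Those of TN lay between 0.59 below and 0.33 above. Replicates 2 and 3 of TN and of its DMSO group stood apart by interferon-stimulated genes, whose 10 listed members summed to 1859 to 5249 CPM (counts scaled to a library of fixed size, after normalization), against 197 to 382 CPM in the other 8 libraries. Of these genes, 0 of 9 tested passed with OA and 0 of 10 with TN (edgeR with Benjamini-Hochberg correction). Over all genes tested, 4.48% passed with OA and 6.99% with TN. The median log2 fold changes of the listed genes were 0.20 and -1.73. The OA median was -0.08 without OA replicate 1, 0.11 without DMSO replicate 2, and 0.31 to 0.50 in the other fits that left out a library. The TN median was -1.10 without TN replicate 1, -1.17 and -1.31 without DMSO replicate 3 or 2, and -1.99 to -2.25 in the others. With the replicate number as a block, 5 of the 10 were called lower with TN, IFIT1, IFIT2, IFIT3, OAS1, and IFI44L, against 27.1% of all genes called in either direction, and in the fit of TN replicates 2 and 3 alone 9 were, against 42.8%. With OA, the block called 1 of 9 higher, OASL, and 1 lower, IFIT1, against 26.7% of all genes. The lowest p without the block belonged to OASL, MX1, and IFI6 with OA (log2 fold changes of 1.47, 0.70, and -0.47; adjusted p = 0.0564, 0.294, and 0.472, edgeR) and to IFIT3, OASL, and ISG15 with TN (-2.29, -1.83, and -1.17; adjusted p = 0.361, 0.393, and 0.457, edgeR). Whether this has a part in the TN results was looked at only by fitting those replicates alone, given below. The sample was checked against epithelial markers: KRT8, KRT18, KRT19, EPCAM, CDH1, and CDX2 were at 5.91 CPM or more in every library, whereas VIL1 had at most 3 counts. The 5 leukocyte markers summed to at most 0.592 CPM, the 3 endothelial markers to at most 1.45 CPM, and the 4 fibroblast markers to at most 12.3 CPM, nearly all from COL1A1.

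Under both stressors, the RNA of the same 4 of the 8 genes rose. ERN1, XBP1, ATF6, and CREB3L2 were between 1.90 and 3.65 times as high as in their own DMSO libraries, and each passed the test with OA and with TN. A gene is said to have passed, or to have risen or fallen, where the quasi-likelihood test of edgeR gave a p under 0.05 after Benjamini-Hochberg correction over all genes tested. With OA, 4 of the 8 genes passed, whereas 4.48% of the 14681 genes tested did (2.76% higher and 1.72% lower). With TN, these 4 passed again, whereas 6.99% of the 14432 genes tested did (3.65% higher and 3.34% lower). The median log2 fold change of the 8 genes was 1.31 with OA and 0.93 with TN, against -0.02 and -0.03 over all tested genes. Without OA replicate 2, the OA values were 1.49 for ERN1, 1.03 for XBP1, 1.10 for ATF6, and 1.33 for CREB3L2. ATF6B and MBTPS1 were then at 0.57, CREB3 at 0.31, and MBTPS2 at -0.06, so that the median lay between 0.57 and 1.03. Every treated library lay above every DMSO library for 6 of the 8 genes with OA, against 16.3% of all tested genes, and for 7 of the 8 with TN, against 15.9%. None of the 8 had every treated library below, which 15.5% and 16.8% of all tested genes did. With the replicate number as a block, 7 of the 8 genes passed with TN, against 27.1% of all genes tested (11.8% higher). With this block, 7 of the 8 genes also passed with OA, against 26.7% of all genes tested (11.7% higher). Across genes, deviations from the group mean correlated at 0.62, 0.54, and 0.09 between equal-numbered OA libraries, which is only a hint of pairing. In TN, libraries 2 and 3 also correlated across numbers (0.44 and 0.38), so the numbers do not tell these apart.

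**Figure D1:**
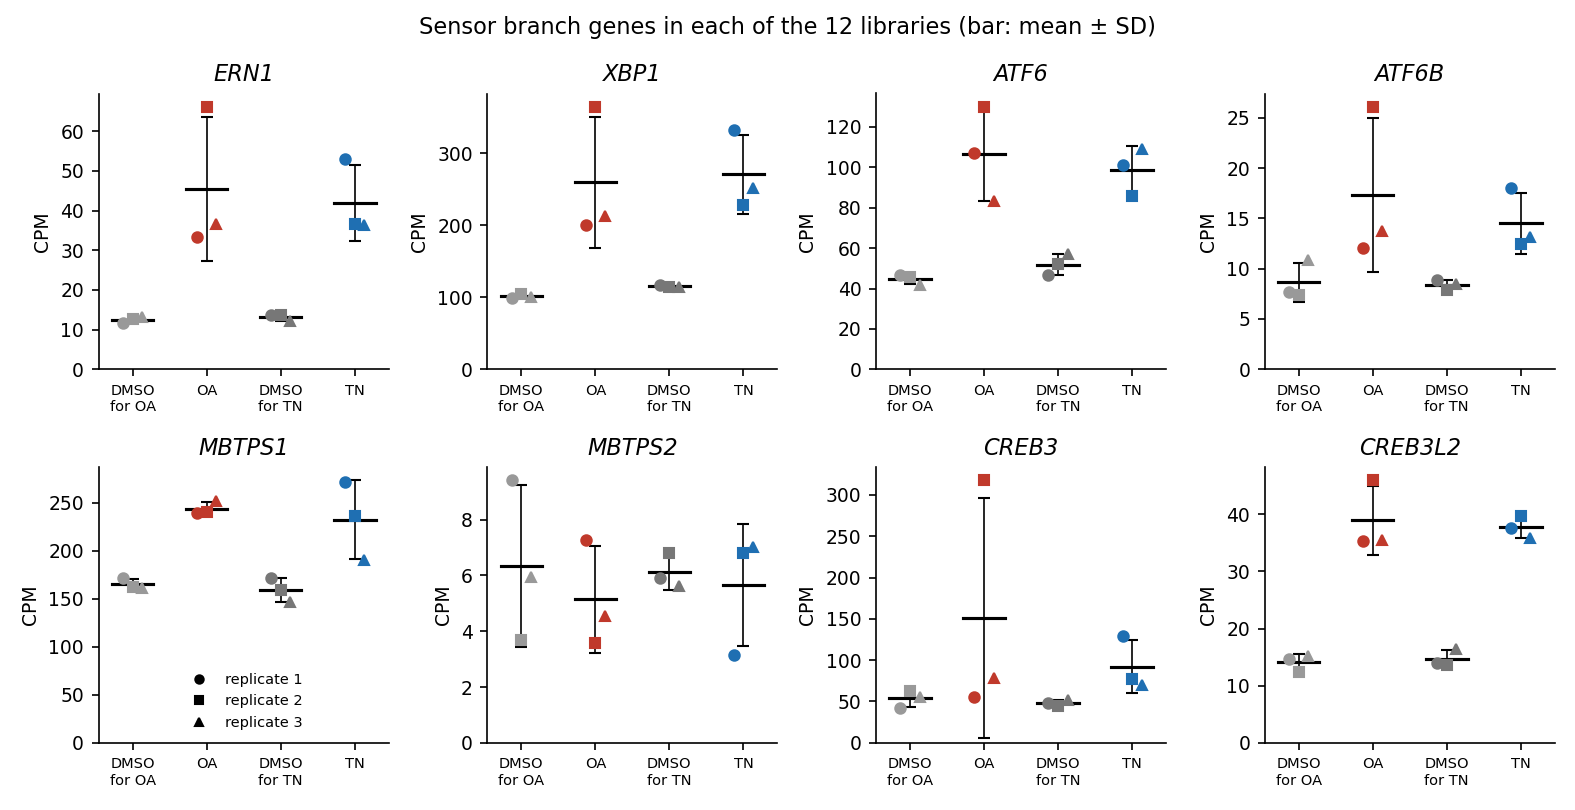
Normalized level (CPM, linear axis from 0) of each of the 8 genes in the 12 libraries, with 1 symbol per replicate number and the mean ± SD of each group in black. The OA and TN points of ERN1, XBP1, ATF6, and CREB3L2 lie above all DMSO points, those of MBTPS2 overlap them, and OA replicate 2 of CREB3 stands alone at 318 CPM.

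ERN1, at chr17:64039080-64130819 on the minus strand, had the largest fold change of the 8 genes under both stressors in the reported fits. With offsets for GC content in each library, XBP1 was higher with OA, at 1.80 on the log2 scale against 1.72 for ERN1. ERN1 was at 11.6, 12.6, and 13.2 CPM in the DMSO libraries of OA and at 33.4, 66.2, and 36.7 CPM in the OA libraries. All OA libraries were above all DMSO libraries, and OA replicate 2 was far above the others. Its log2 fold change was 1.87 with a standard error (SE) of 0.33, or 3.65-fold (adjusted p = 0.0271 by edgeR with Benjamini-Hochberg correction). In the TN experiment, ERN1 was at 13.8, 13.7, and 12.1 CPM with DMSO and at 53.0, 36.5, and 36.4 CPM with TN. Again no treated library overlapped a DMSO library, and TN replicate 1 was the highest. The log2 fold change was 1.67 with an SE of 0.24, or 3.17-fold (adjusted p = 0.00968 by edgeR with Benjamini-Hochberg correction). Exons of ERN1 share 432 and 452 bases with a pair of antisense noncoding genes, and whether the counting used the strand is not stated.

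XBP1 (chr22:28794555-28800597, minus strand), the mRNA that IRE1 cuts, was at 98.8, 104, and 101 CPM in the DMSO libraries of OA. The OA libraries held 201, 365, and 213 CPM, so that all were above the DMSO libraries and replicate 2 was again the highest. Total XBP1 RNA rose by 1.36 on the log2 scale with an SE of 0.28, or 2.57-fold (adjusted p = 0.0400 by edgeR with Benjamini-Hochberg correction). For TN, the DMSO libraries held 117, 115, and 115 CPM and the TN libraries 333, 228, and 252 CPM, with no overlap and the highest value in replicate 1. In log2, the change was 1.23 with an SE of 0.21, or 2.34-fold (adjusted p = 0.0175 by edgeR with Benjamini-Hochberg correction). The DMSO libraries of XBP1 varied little, with an SD of 2.38 CPM for OA and 1.08 CPM for TN (n = 3 each), and nearly all of the spread came from the treated libraries.

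ATF6 (chr1:161766298-161977574, plus strand), which encodes the transcription factor freed by the Golgi proteases, was at 46.5, 45.5, and 41.7 CPM with DMSO and at 107, 130, and 83.5 CPM with OA. The groups did not overlap, and replicate 2 was the highest. Its log2 fold change was 1.26 with an SE of 0.25, or 2.40-fold (adjusted p = 0.0359 by edgeR with Benjamini-Hochberg correction). With TN, it went from 46.5, 51.9, and 57.0 CPM to 101, 85.8, and 109 CPM. The groups again did not overlap, and here replicate 3 rather than replicate 1 was the highest. The log2 fold change of ATF6 with TN, 0.93 with an SE of 0.20, or 1.90-fold, was the smallest among the 4 called genes (adjusted p = 0.0372 by edgeR with Benjamini-Hochberg correction). In 9 of 11 alternative fits it passed the test, with adjusted p of 0.0609 when scaled to library totals and 0.0519 with no filter on low counts (edgeR, Benjamini-Hochberg).

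CREB3L2 (chr7:137874979-138002086, minus strand) encodes a membrane-held relative of ATF6 known for its role in secretory cells and in cartilage. It was at 14.6, 12.4, and 15.2 CPM with DMSO and at 35.3, 46.0, and 35.5 CPM with OA. The OA libraries lay clear of the DMSO libraries and closer together than those of ERN1 and XBP1. The log2 fold change was 1.47 with an SE of 0.25, or 2.76-fold (adjusted p = 0.0270 by edgeR with Benjamini-Hochberg correction). With TN, CREB3L2 was at 14.0, 13.6, and 16.4 CPM in the DMSO libraries and at 37.7, 39.7, and 35.8 CPM in the TN libraries. Its treated libraries were the most alike of the 4 genes, and TN replicate 1 did not stand apart. This gave a log2 fold change of 1.37 with an SE of 0.20, or 2.58-fold (adjusted p = 0.0106 by edgeR with Benjamini-Hochberg correction).

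These calls were made from 3 libraries against 3, and leaving out a library often ended them. With OA, the 4 genes kept an adjusted p under 0.05 without OA replicate 1 or without OA replicate 2, and none of the 4 did without OA replicate 3 or without any single DMSO replicate, where adjusted p ranged from 0.0671 to 0.208 (edgeR, Benjamini-Hochberg). Over all genes, 7.57% and 5.53% passed without OA replicate 1 or 2, and 0.0200% to 0.587% in the other 4 fits. Their log2 fold changes stayed between 1.03 and 2.03 in these fits and were lowest for each gene without OA replicate 2, at 1.49 for ERN1, 1.03 for XBP1, 1.10 for ATF6, and 1.33 for CREB3L2. With TN, 3 of the 8 genes passed without DMSO replicate 1, 0 without DMSO replicate 2 or 3, 5 without TN replicate 1, 2 without TN replicate 2, and 1 without TN replicate 3. Over all genes, the shares in these fits were 3.16%, 1.23% and 1.01%, 15.8%, 2.01%, and 2.07%. The 4 log2 fold changes stayed between 0.81 and 1.75. In a fit of the interferon-high TN and DMSO replicates 2 and 3 alone, chosen after the data were seen, the log2 fold changes of ERN1, XBP1, ATF6, and CREB3L2 were 1.56, 1.13, 0.91, and 1.41, and 7 of the 8 genes passed, against 42.8% of all genes tested.

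**Figure D2:**
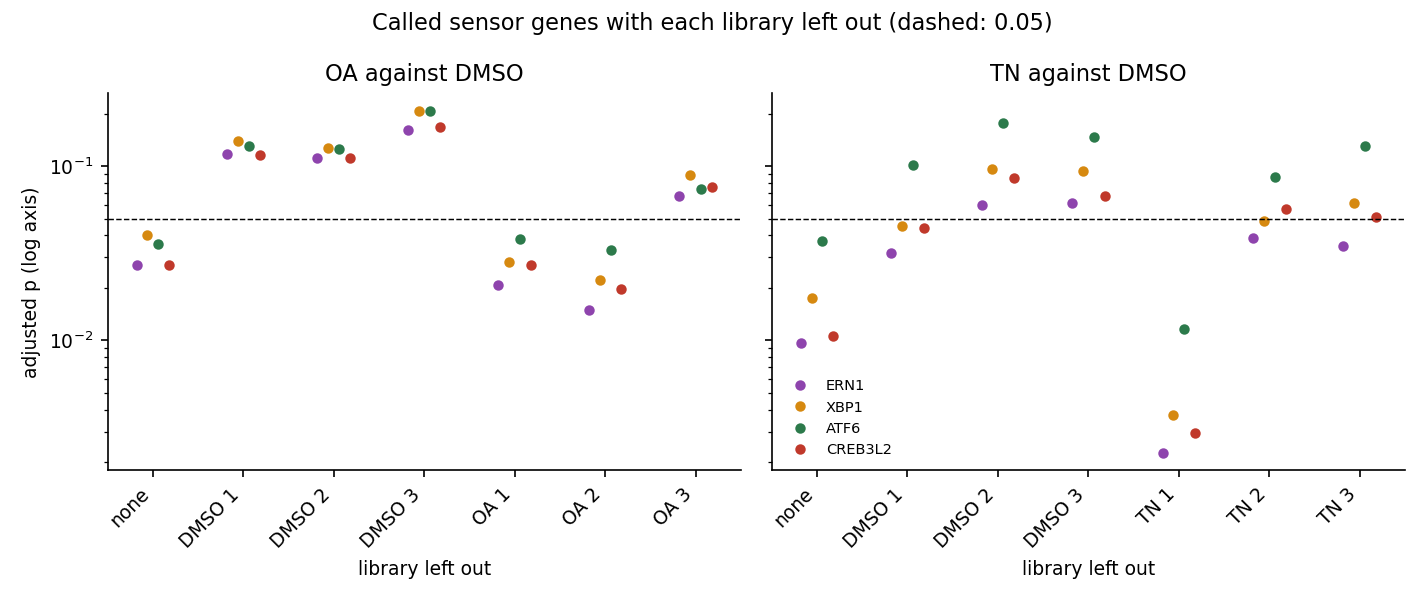
Adjusted p (log axis; edgeR, Benjamini-Hochberg) of the 4 called genes with all libraries ("none") and with each library left out, for OA and TN; the dashed line marks 0.05. Without any single DMSO library of OA all 4 genes lie above the line, and without TN replicate 1 all 4 lie lowest.

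ATF6B (chr6:32115264-32128253, minus strand), the relative of ATF6, was less abundant and did not pass the test. With OA, it went from 7.69, 7.42, and 10.9 CPM to 12.1, 26.1, and 13.7 CPM, without overlap but with OA replicate 2 at about the summed level of the other OA libraries. The log2 fold change was 1.00 with an SE of 0.37 (adjusted p = 0.157 by edgeR with Benjamini-Hochberg correction), and 0.57 without OA replicate 2. With the replicate block it was 0.94 (adjusted p = 0.0445, edgeR, Benjamini-Hochberg). With TN, it went from 8.85, 7.84, and 8.44 CPM to 18.0, 12.4, and 13.1 CPM, again without overlap and with replicate 1 the highest. The fitted change was 0.79 with an SE of 0.25 and an adjusted p of 0.101, and with the replicate block the adjusted p was 0.0244 (edgeR, Benjamini-Hochberg). ATF6B has the most GC-rich longest transcript of the 8 genes, at 57.6% GC, and 289 of its exon bases are shared with a noncoding gene and 71 with TNXB on the same strand.

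CREB3 (chr9:35732598-35736999, plus strand), a membrane-held factor also known as Luman, rested on a single library with OA. It was at 42.6, 62.5, and 55.9 CPM with DMSO and at 55.9, 318, and 79.0 CPM with OA. OA replicate 2 stood apart, and OA replicate 1 fell within the DMSO range. The log2 fold change was 1.49 with an SE of 0.61 (adjusted p = 0.191 by edgeR with Benjamini-Hochberg correction), and without OA replicate 2 it was 0.31 (adjusted p = 0.530). With the replicate block it was 1.07 (adjusted p = 0.0469, edgeR, Benjamini-Hochberg). With TN, it went from 48.2, 44.6, and 51.4 CPM to 129, 76.8, and 70.4 CPM. These groups did not overlap, and TN replicate 1 was the highest. In log2, the change was 0.94 with an SE of 0.27 and an adjusted p of 0.0842, and with the replicate block the adjusted p was 0.0146 (edgeR, Benjamini-Hochberg). Its longest transcript has 56.1% GC. Offsets for GC content in each library moved the log2 fold change of CREB3 to 1.22 with OA and 0.81 with TN, the latter with an adjusted p of 0.00725 (edgeR, Benjamini-Hochberg). CREB3 shares 134 exon bases, 8.2% of its exons, with GBA2 on the opposite strand and how many of its counts come from there was not measured.

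The proteases had the smallest log2 fold changes of the 8 genes in the reported fits. Without OA replicate 2, CREB3 was lower with OA than MBTPS1, at 0.31 against 0.57, and ATF6B was also at 0.57. MBTPS1 (chr16:84053761-84116942, minus strand), the site-1 protease, was at 172, 162, and 161 CPM with DMSO and at 239, 241, and 252 CPM with OA. All OA libraries were above the DMSO libraries, and unlike for ERN1 and XBP1 OA replicate 2 did not stand apart. The log2 fold change was 0.57 with an SE of 0.20, or 1.48-fold (adjusted p = 0.140 by edgeR with Benjamini-Hochberg correction). With the replicate block the adjusted p was 0.0425 (edgeR, Benjamini-Hochberg). With TN, the values were 172, 159, and 147 CPM with DMSO and 272, 236, and 190 CPM with TN, also without overlap. This gave a log2 fold change of 0.55 with an SE of 0.21, or 1.46-fold, with an adjusted p of 0.160, and with the replicate block the adjusted p was 0.0245 (edgeR, Benjamini-Hochberg).

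MBTPS2 (chrX:21839617-21885423, plus strand), the site-2 protease, was the only one of the 8 genes with a negative log2 fold change. It was at 9.42, 3.67, and 5.94 CPM with DMSO and at 7.29, 3.59, and 4.55 CPM with OA, with overlapping groups. With TN, it went from 5.90, 6.82, and 5.63 CPM to 3.15, 6.81, and 7.02 CPM, again overlapping. The log2 fold changes were -0.29 with an SE of 0.44 for OA and -0.11 with an SE of 0.35 for TN (adjusted p = 0.719 and 0.888 by edgeR with Benjamini-Hochberg correction). MBTPS2 has the lowest GC content of the 8 longest transcripts, 35.9%, and was lowest in DMSO replicate 2 of OA, OA replicate 2, and TN replicate 1, in which genes of low GC content lay 0.59, 0.72, and 1.00 below their group means. DMSO replicate 1 of TN, where these genes were also 0.59 below, held 5.90 CPM. With GC offsets, its log2 fold changes were 0.29 and 0.05, and scaled to ACTB they were 0.07 and 0.28, so that the sign is not settled. MBTPS2 shares 1093 exon bases, 12.2% of its exons, with YY2 on the same strand, and its lowest count was 30.

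**Figure D3:**
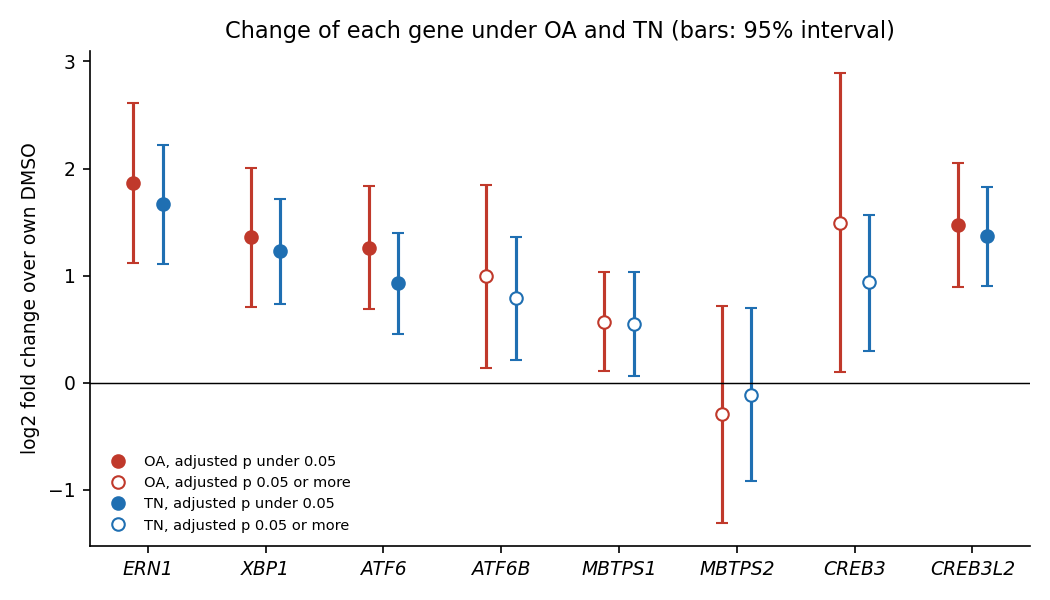
Log2 fold change over the own DMSO libraries of each gene with OA (red) and TN (blue); bars are 95% intervals from edgeR's test, and filled points have an adjusted p under 0.05. ERN1 has the largest called change under both stressors (1.87 and 1.67), MBTPS1 about 0.6, and MBTPS2 lies below 0 with wide intervals.

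To compare the genes with each other, levels were divided by the length of the longest annotated transcript. In the DMSO libraries of OA, XBP1 was the most abundant at 46.5 ± 1.10 CPM per kb (SD, n = 3), followed by MBTPS1 at 37.7 ± 1.36 and CREB3 at 35.9 ± 6.78 CPM per kb. MBTPS1 and CREB3 did not differ beyond their spread. ATF6 was at 5.96 ± 0.340 CPM per kb and ATF6B at 3.30 ± 0.729 CPM per kb. CREB3L2 (1.89 ± 0.198 CPM per kb), MBTPS2 (1.42 ± 0.650 CPM per kb), and ERN1 (1.38 ± 0.0915 CPM per kb) were lowest, and MBTPS2 did not differ from either neighbour beyond its spread. The DMSO libraries of TN gave the same leading order, from XBP1 at 53.2 ± 0.495 CPM per kb to ERN1 at 1.46 ± 0.104 and MBTPS2 at 1.37 ± 0.140 CPM per kb, the last pair within their spread. In treated cells, ERN1 reached 5.04 ± 2.00 CPM per kb with OA and 4.65 ± 1.06 CPM per kb with TN. It then stood beside CREB3L2, at 5.23 ± 0.825 and 5.07 ± 0.264 CPM per kb, and ATF6B, at 6.58 ± 2.92 and 5.52 ± 1.15 CPM per kb, none of which differed beyond their spread. XBP1 reached 119 ± 42.1 CPM per kb with OA and 125 ± 25.3 CPM per kb with TN. The longest transcript of XBP1 in the annotation keeps an intron and that of ERN1 is 9028 bases long, so these levels depend on which transcript the cells make.

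Whether the stressors differed in their effect on the 8 genes was tested by subtracting the TN effect from the OA effect in 1 model of the 12 libraries. None of the 8 genes passed, each at an adjusted p of 1.00 (edgeR, Benjamini-Hochberg). Of all 15429 genes tested, 0% passed, 348 had a p under 0.05 before correction, and DESeq2 called 2. None of the 8 had a p under 0.05 before correction. The difference was 0.12 for ERN1 with a 95% interval from -0.63 to 0.87. It was 0.05 for XBP1 (-0.60 to 0.70), 0.26 for ATF6 (-0.36 to 0.87), and 0.02 for CREB3L2 (-0.56 to 0.60). These intervals include differences of up to 0.60 to 0.87 toward OA and of 0.36 to 0.63 toward TN. For MBTPS1, the difference was -0.04 (-0.57 to 0.50), and for ATF6B 0.12 (-0.75 to 0.99). The widest intervals belonged to MBTPS2, -0.25 (-1.57 to 1.08), and CREB3, 0.44 (-1.05 to 1.93). Without OA replicate 2, the differences of ERN1, XBP1, ATF6B, CREB3, and CREB3L2 turned to -0.19, -0.21, -0.23, -0.63, and -0.06.

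Of 14 partners of IRE1 and enzymes of XBP1 mRNA ligation, all tested, TRAF2 fell with OA and SYVN1 rose with TN, and no other gene passed. The 1 gene called with each stressor compares with 4.48% of all genes tested with OA and 6.99% with TN. The median log2 fold changes were -0.19 with OA and -0.16 with TN, with 5 and 6 of the 14 values positive. They became 0.26 and 0.16 when libraries were scaled to ACTB. In the fits that left out a library, the OA median lay between -0.27 (without DMSO replicate 3) and -0.11 (without DMSO replicate 1 or 2). The TN median was 0.01 without TN replicate 1. TRAF2, the adaptor through which IRE1 signals to kinases, went from 39.7 ± 9.38 to 16.5 ± 2.76 CPM (SD, n = 3 each) with OA. On the log2 scale this was a difference of -1.27 (SE 0.28, adjusted p = 0.0471 by edgeR with Benjamini-Hochberg correction). With TN, its log2 fold change was -1.04 (SE 0.28, adjusted p = 0.0695; 0.00343 with the replicate block). SYVN1, a ubiquitin ligase of ER-associated degradation, went from 6.46 ± 0.821 to 18.6 ± 8.26 CPM (SD, n = 3 each) with TN. On the log2 scale this was a difference of 1.53 (SE 0.35, adjusted p = 0.0421 by edgeR with Benjamini-Hochberg correction), and its value with OA was 1.79 (SE 0.45, adjusted p = 0.0636), or 1.12 without OA replicate 2. TMBIM6, an ER membrane protein that binds IRE1, had log2 fold changes of 0.75 and 0.69 (SE 0.23 and 0.18, adjusted p = 0.104 and 0.0589; 0.00387 with the block in TN). With the block in OA, 2 of the 14 genes were called higher, SYVN1 and TMBIM6, and 4 lower, TRAF2, DDX1, FAM98A, and FAM98B, in a fit that called 26.7% of all genes. With the block in TN, 3 of the 14 genes were called higher, SYVN1, TMBIM6, and SEC63, and 3 lower, TRAF2, DDX1, and FAM98A, in a fit that called 27.1% of all genes. The values that follow are those with TN. SEC63, a part of the ER translocation channel, had a log2 fold change of 0.83 (SE 0.36, adjusted p = 0.208; 0.0280 with the block). DDX1 and FAM98A, of the tRNA ligase complex that also joins XBP1 mRNA, had -0.79 each (SE 0.25 and 0.27, adjusted p = 0.101 and 0.120; 0.0177 and 0.0162 with the block). The calls of TRAF2 with OA and of SYVN1 with TN each held in 1 of the 6 fits that left out a library, and TRAF2 did not pass with OA when scaled to ACTB or without both libraries numbered 2 (adjusted p up to 0.125, edgeR).

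Genes that XBP1s is known to drive had positive log2 fold changes under both stressors, and more of them passed with TN, as did more of all genes tested (6.99% against 4.48% with OA). Positive values were found for all 11 listed genes with OA (median 0.65) and with TN (median 1.11). With OA, 2 of the 11 rose, EDEM1 and SEC24D. With TN, 5 of the 11 rose, PDIA6, DNAJB11, SEC24D, EDEM1, and DNAJB9. With the replicate block, all 11 were called higher with TN, against 27.1% of all genes called in either direction. The block called 6 of the 11 higher with OA, against 26.7% of all genes. EDEM1, which helps to clear misfolded glycoproteins, had log2 fold changes of 1.47 with OA and 1.58 with TN (SE 0.30 and 0.29, adjusted p = 0.0369 and 0.0217 by edgeR with Benjamini-Hochberg correction). Without both OA libraries numbered 2, EDEM1 did not pass (adjusted p = 0.0517, edgeR). SEC24D, a coat protein of vesicles that leave the ER, had 1.62 and 1.11 (SE 0.28 and 0.19, adjusted p = 0.0271 and 0.0175 in the same test). PDIA6, a protein disulfide isomerase whose ERSE is printed above, went from 311 ± 4.49 to 845 ± 19.0 CPM (SD, n = 3 each) with TN. On the log2 scale this was a difference of 1.44 (SE 0.17, adjusted p = 0.00610). With OA, it went from 280 ± 19.4 to 385 ± 139 CPM (SD, n = 3 each) with overlapping libraries. In log2 this was a difference of 0.46 (SE 0.29, adjusted p = 0.376), and of 0.13 to 0.63 in the fits that left out a library. SERP1, which stabilizes new membrane proteins, had 0.98 and 0.99 (SE 0.27 and 0.25, adjusted p = 0.0788 and 0.0584; 0.0145 and 0.00328 with the block). Leaving out a library changed the number called to between 0 and 2 of the 11 with OA, where it was 0 without any single DMSO replicate or without OA replicate 3. With TN, it was 0 without DMSO replicate 2 or 3, 1 without DMSO replicate 1, TN replicate 2, or TN replicate 3, and 11 without TN replicate 1, where 15.8% of all genes passed. In the other fits without a library, this share was at most 7.57% with OA and 3.16% with TN.

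Of the genes that ATF6 is known to drive, all 10 listed rose with TN (median log2 fold change 2.41), whereas with OA 2 of the 10 rose, HSPA5 and HERPUD1, and all 10 values were positive (median 0.97). Over all genes tested, 6.99% passed with TN and 4.48% with OA. With the replicate block, all 10 were called higher with TN, against 27.1% of all genes called in either direction. The block called 5 of the 10 higher with OA, HSPA5, HERPUD1, HYOU1, SEL1L, and MANF, against 26.7% of all genes. HSPA5, the chaperone BiP that binds IRE1 and ATF6 in the ER lumen, went from 162 ± 8.70 to 1208 ± 186 CPM (SD, n = 3 each) with TN. On the log2 scale this was a difference of 2.90 (SE 0.21, adjusted p = 0.00240 by edgeR with Benjamini-Hochberg correction). With OA, it went from 153 ± 13.6 to 1086 ± 860 CPM (SD, n = 3 each). In log2 this was a difference of 2.83 (SE 0.52, adjusted p = 0.0301 in the same test), and of 1.95 without OA replicate 2. HERPUD1, which brings substrates to the ER degradation machinery, had log2 fold changes of 2.15 with OA and 3.04 with TN (SE 0.46 and 0.20, adjusted p = 0.0418 and 0.00240), and 1.40 with OA without OA replicate 2. HYOU1, another ER chaperone, had 2.02 and 2.53 (SE 0.53 and 0.19, adjusted p = 0.0681 and 0.00240), and 1.07 with OA without OA replicate 2. With OA, the number called among the 10 was 0 without any single DMSO replicate or without OA replicate 3, 3 without OA replicate 1, and 4 without OA replicate 2, where the median fell to 0.42. The shares of all genes were 0.0200% to 0.587% in the fits with 0, and 7.57% and 5.53% without OA replicate 1 or 2. With TN, the number was between 7 and 10 in the fits that left out a library, against 1.01% to 15.8% of all genes.

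The difference between the stressors was below 0 for all 10 ATF6 targets, with a median of -1.30 on the log2 scale, against -0.06 over all genes tested. None of the 10 passed, at an adjusted p of 1.00 each (edgeR, Benjamini-Hochberg). For 5 the p before correction was under 0.05, as for 348 of all 15429 genes tested. The 5 were PDIA4 (-1.68, 95% interval -2.44 to -0.91), CALR (-1.68, -2.73 to -0.62), CRELD2 (-1.69, -3.00 to -0.37), HSP90B1 (-1.94, -3.49 to -0.39), and SEL1L (-1.51, -2.75 to -0.26). The chaperone CALR shows the pattern, with log2 fold changes of 0.45 (SE 0.45) with OA and 2.02 (SE 0.20) with TN. HSPA5 had a difference of -0.18 (-1.31 to 0.96), an interval that reaches the median of the list, and its change with OA, 2.83, rested in part on OA replicate 2, without which it was 1.95. Among the 11 XBP1 targets, the median difference was -0.35, 9 were below 0, and the 3 with a p under 0.05 before correction were PDIA6 (-1.08, -1.73 to -0.42), DNAJB11 (-1.42, -2.43 to -0.42), and DNAJC3 (-2.00, -3.81 to -0.18). The 8 sensor and protease genes themselves lay between -0.25 and 0.44.

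**Figure D4:**
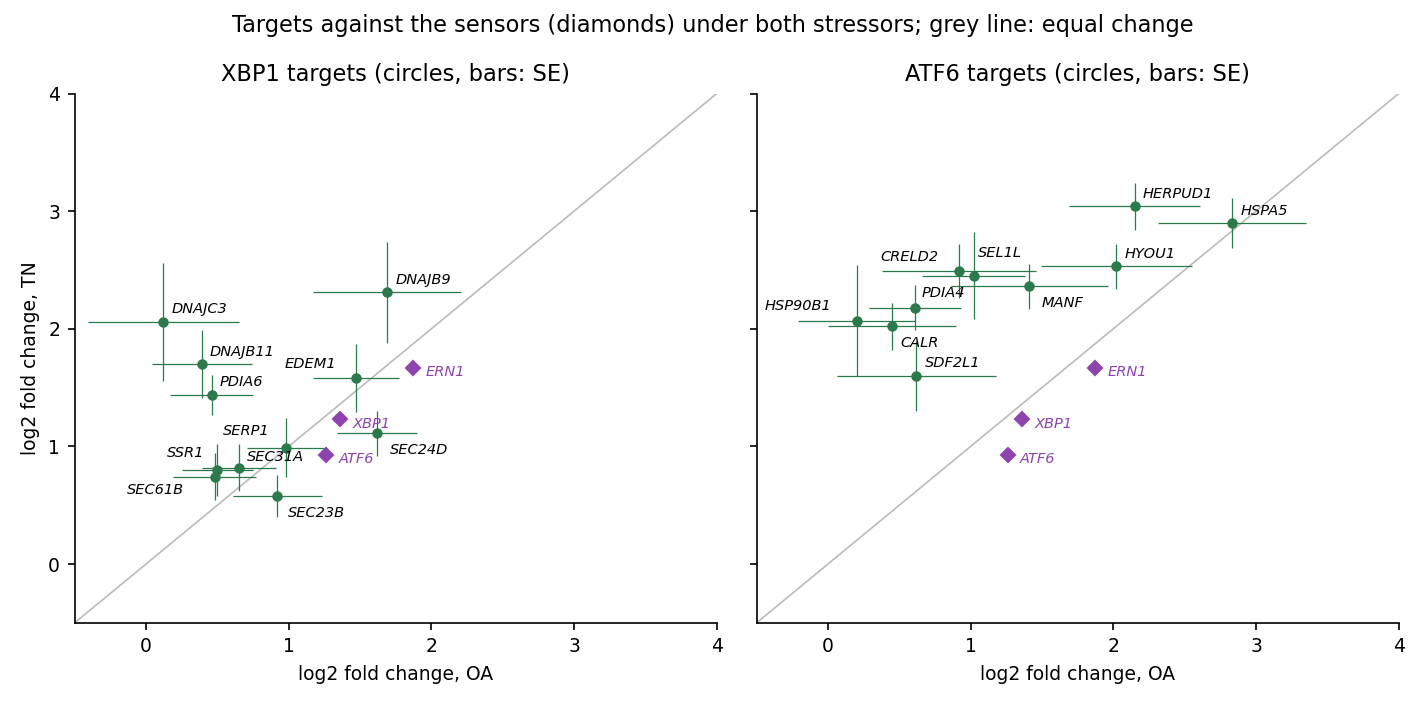
Log2 fold changes with OA (x axis) and TN (y axis) of 11 XBP1 targets and 10 ATF6 targets (circles, bars are SE), with ERN1, XBP1, and ATF6 as diamonds; on the grey line both changes are equal. The ATF6 targets lie above the line, HSPA5 only just, and the diamonds lie just below it.

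**Figure D5:**
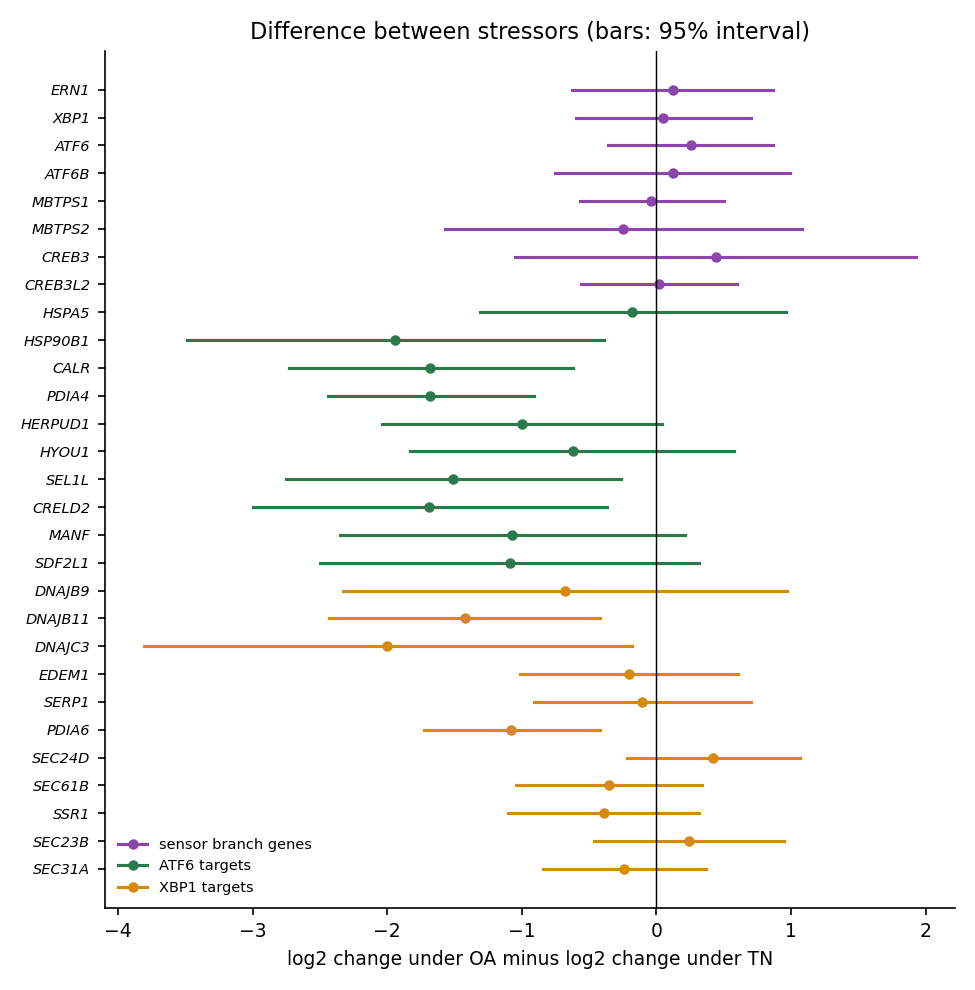
Change with OA minus change with TN (log2) with 95% intervals from edgeR for the 8 sensor branch genes (purple), the ATF6 targets (green), and the XBP1 targets (orange). All 8 purple intervals span 0, and 5 green and 3 orange intervals lie below it.

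RNAs that active IRE1 is known to cut, besides XBP1, were listed for 8 genes, of which 7 were tested with OA and 8 with TN. SCARA3, a scavenger receptor, fell under both stressors, from 21.2 ± 1.16 to 6.86 ± 2.39 CPM with OA and from 18.5 ± 2.93 to 6.18 ± 2.87 CPM with TN (SD, n = 3 each). Its log2 fold changes were -1.63 and -1.58 (SE 0.32 and 0.36, adjusted p = 0.0352 and 0.0424 by edgeR with Benjamini-Hochberg correction). PMP22, a myelin membrane protein, fell with TN, with a log2 fold change of -1.17 (SE 0.23, adjusted p = 0.0265 in the same test), and its value with OA was -1.02 (SE 0.25, adjusted p = 0.0609). BLOC1S1, the best known of these targets and a subunit of a lysosome-related complex, had -0.97 with OA (SE 0.37, adjusted p = 0.168) and 0.25 with TN (SE 0.37, adjusted p = 0.728). The median of the list was -0.94 with OA and -0.04 with TN, and 5 and 5 of the tested values were below 0. The 1 of 7 called with OA and the 2 of 8 with TN compare with 4.48% and 6.99% of all genes. The OA median is the value of SPARC itself, and it was -0.57 without DMSO replicate 1, -0.46 without DMSO replicate 3, and -0.35 without OA replicate 2. In the TN fits that left out a library, the median lay between -0.16 (without TN replicate 1) and 0.01 (without TN replicate 2). Scaled to ACTB, the medians were -0.48 and 0.27, and none of these genes passed. SPARC had few counts, at most 93, and log2 fold changes of -0.94 and -2.86 with SE of 1.20 and 0.89 (adjusted p = 0.666 and 0.0990; 0.0357 with the block in TN). Without a library, its values ranged from -1.44 to -0.35 with OA and from -5.00 (without TN replicate 3) to -2.29 with TN. The calls of SCARA3 with OA held in 2 of the 6 fits without a library, and those of SCARA3 and PMP22 with TN in 1 of 6 each, that without TN replicate 1.

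Of 19 relatives and partners of ATF6 and its proteases, 16 had enough counts to be tested. CREB3L1 and CREB3L3, further members of the CREB3 family, and ERN2, the gut and airway form of IRE1, reached at most 2, 14, and 10 counts in any library. CREB3L1 was thus at or under the floor of 3 counts throughout. EIF2AK3, which encodes PERK, the sensor of the remaining branch of the response, rose with TN from 32.5 ± 2.42 to 76.9 ± 17.4 CPM (SD, n = 3 each). On the log2 scale this was a difference of 1.24 (SE 0.23, adjusted p = 0.0243 by edgeR with Benjamini-Hochberg correction). With OA, its libraries did not overlap either, at a log2 fold change of 0.97 (SE 0.23, adjusted p = 0.0535). It passed in 1 of the 6 fits that left out a library, that without TN replicate 1, with adjusted p up to 0.151 in the others (edgeR, Benjamini-Hochberg). No other gene of the list passed in the reported fits without the replicate block, which gives 0 of 16 with OA and 1 of 16 with TN, against 4.48% and 6.99% of all genes. With the block in OA, 6 of the 16 were called higher and 3 lower, NFYB, YY1, and GNPTAB, against 26.7% of all genes called in either direction. With the block in TN, 4 of the 16 were called higher, EIF2AK3, CREB3L4, CREBRF, and SREBF1, and 2 lower, NFYB and YY1, against 27.1% of all genes called in either direction. NFYB, a subunit of NF-Y, had a log2 fold change of -1.02 with TN and YY1, another DNA-binding factor, -0.54 (SE 0.51 and 0.24, adjusted p = 0.274 and 0.222; 0.0126 and 0.0393 with the block). SREBF1 had 0.52 with TN (SE 0.39, adjusted p = 0.470; 0.0433 with the block). CREB3L4 had 0.52 and 1.06 (SE 0.35 and 0.37, adjusted p = 0.400 and 0.131; 0.0174 with the block in TN). CREBRF, a regulator of CREB3, had 0.68 and 1.59 (SE 0.50 and 0.58, adjusted p = 0.446 and 0.146; 0.00153 with the block in TN). SREBF2, the sterol-sensing factor cut by the same proteases, had 1.01 and 0.56 (SE 0.41 and 0.45, adjusted p = 0.188 and 0.497), and TXNDC12, an ER thioredoxin, had 0.80 and 0.70 (SE 0.31 and 0.37, adjusted p = 0.172 and 0.296). The median of the list was 0.46 with OA and 0.15 without OA replicate 2. With TN it was 0.24, and 0.03 without TN replicate 1, 0.15 and 0.10 without DMSO replicate 2 or 3, and 0.54 without DMSO replicate 1. The change of CREBRF with OA was 0.05 without OA replicate 1.

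The genes most like ERN1, XBP1, ATF6, and CREB3L2 were found by the root mean square difference of log2 levels over the 12 libraries, each level taken relative to the mean of its own DMSO group, among 8984 genes with a mean of at least 10 CPM outside the 8. For ERN1, they were NFE2L1 (0.11), SARS1 (0.12), and EML2 (0.13). For XBP1, they were VAV1 (0.10), RINL (0.11), and SMPDL3B (0.14). For ATF6, they were IRF2BP2 (0.14), GOLPH3L (0.17), and KDM5B (0.17), and for CREB3L2, PCDH1 (0.18), PLD3 (0.18), and UNC5B (0.19). By the same measure, ERN1 and XBP1 were 0.33 apart, ATF6 and XBP1 0.23, CREB3L2 and XBP1 0.22, and ERN1 and ATF6 0.51. The 12 libraries share the standing-apart OA replicate 2 and TN replicate 1, which enter every one of these distances.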

How the data were processed

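Per the labels, total RNA of HCT116 cells treated with oligomycin A (OA), tunicamycin (TN), or DMSO was sequenced. The authors used STAR on hg38 and counted reads by gene. They deposited those counts unnormalized, together with DESeq2 tables (mean levels, log2 fold changes, standard errors, statistics, and p-values), which were not used here. How strands were counted is not stated. Each column of counts was matched to its library, and no 2 libraries of a group agreed within sampling noise. Replicates 2 and 3 were far the closest pair with TN and in its DMSO group, at a chi-square per gene of 5.92 and 6.78. Pairs with replicate 1 in these groups were at 63.1 to 98.9. The fit of TN replicates 2 and 3 alone rests on these close pairs.

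Groups and replicate numbers came from the labels. In each experiment, genes kept by filterByExpr were scaled by TMM and compared, two-sided, with the quasi-likelihood method of edgeR 4.0.16 (R 4.3.3), correcting p after Benjamini-Hochberg across the kept genes. A model of all 12 libraries gave the OA effect minus the TN effect. Levels are CPM after TMM, log2 levels had a prior count of 2, and intervals are 95% intervals. With 3 replicates per group, p-values measure only the spread between these libraries. Up to 3 counts were read as not resolved. Positions, lengths, and overlaps are from Gencode 44 (hg38), promoters from RefSeq (GRCh38.p14). The scripts were tested on simulated data.

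TN and DMSO libraries with equal numbers deviated together from their group means (correlations across genes of 0.64, 0.41, and 0.43), which with the labels' numbers is the basis for pairing them. Libraries 2 and 3 also did so across numbers (0.44 and 0.38), so the numbers set replicate 1 apart but do not tell 2 from 3.

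The 8 genes, the lists, and the tests were chosen with earlier results of these data known. From each list, up to 3 genes with the lowest p per stressor are named, as is any gene behind a count of 5 or fewer. CALR and HSPA5 in the comparison of stressors were singled out after their values were seen. Alternatives were DESeq2 1.42.0, its size factors in edgeR, scaling to library totals or ACTB, other filters (none, or a minimum of 10 counts throughout), the replicate number as a block, GC offsets (loess, span 0.3, genes with a mean of 20 counts or more) with and without that block, a joint fit, and leaving out each library. Fits of TN replicates 2 and 3 alone, and of OA without both libraries numbered 2, were added after the data were seen.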

Additional observations from a re-analysis of the deposited data

How the results depend on the processing

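In all 11 alternative fits of OA that kept 3 libraries a side or left out both libraries numbered 2, ERN1, XBP1, ATF6, and CREB3L2 passed, and so did ERN1, XBP1, and CREB3L2 in the 11 of TN. Counts over all genes moved more, and the cause was not tested. With OA, 658 genes passed in the reported fit, and 1927 with DESeq2, 1425 scaled to ACTB, 1572 with no filter, 2406 with GC offsets, and 1682 in 1 fit of the 12 libraries. With TN, 1009 passed, and 2162 with DESeq2, 1648 with no filter, 3220 with GC offsets, and 6267 with replicates 2 and 3 only. Of the 8 genes, 7 passed with TN scaled to ACTB (9.83% of all genes), with GC offsets (22.3%), and with replicates 2 and 3 only (42.8%), and 3 scaled to library totals (9.73%) or with no filter (5.85%). Scaling to library totals or ACTB moved the median over all genes to -0.23 or 0.42 with OA, -0.18 or 0.30 with TN, and -0.04 or 0.13 for the difference. The split of higher against lower calls went from 405 and 253 to 352 and 396 (totals) or 1341 and 84 (ACTB) with OA, and from 527 and 482 to 529 and 875 or 1198 and 220 with TN. For the difference, 0 genes passed, against 2 with DESeq2, 25 with no filter, and 1 with GC offsets, none of them among the 8.

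With a replicate block, 3914 genes passed with OA (1713 higher and 2201 lower) and 3915 with TN (1705 and 2210), and 7 of the 8 genes in each. The OA share over all genes was 26.7% (11.7% higher). Block and GC offsets together gave 3793 genes with OA (25.8%), where 4 of the 8 passed, 5401 with TN (37.4%), where 7 of the 8 passed, and 6 for the difference, where the block alone gave 0. Equal-numbered OA libraries correlated at 0.62, 0.54, and 0.09, each treated library best with its own number, so those numbers are only a hint from the data of any pairing.

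Some values changed sign. For MBTPS2 with OA, the log2 fold change was 0.07 scaled to ACTB, 0.29 with GC offsets, and 0.28 with these and the block. For MBTPS2 with TN, these were 0.28, 0.05, and 0.13, and 0.22 with replicates 2 and 3 only. The MBTPS1 difference was 0.02 with DESeq2 or its size factors, 0.14 scaled to ACTB, and 0.03 with no filter, and that of MBTPS2 was 0.24 with GC offsets and 0.14 with these and the block. DNAJB11 with OA was at -0.03 without both libraries numbered 2.

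When each library was left out in turn, between 3 and 1179 genes, and between 0 and 4 of the 8, passed with OA. With TN, between 151 and 2361 genes, and between 0 and 5 of the 8, passed. For the difference, between 0 and 4 genes did. The ranges of log2 values that changed sign were -0.65 to 0.16 (MBTPS2, OA), 0.00 to 0.65 (DNAJB11, OA), -0.30 to 0.22 (MBTPS2, TN), -0.03 to 0.62 (BLOC1S1, TN), and -0.01 to 0.87 (SREBF2, TN). For the difference they were -0.19 to 0.40 (ERN1), -0.21 to 0.30 (XBP1), -0.23 to 0.39 (ATF6B), -0.13 to 0.16 (MBTPS1), -0.67 to 0.12 (MBTPS2), -0.63 to 0.86 (CREB3), and -0.06 to 0.16 (CREB3L2). Counts were few for MBTPS2, with as few as 30, for SPARC, with at most 45 in the TN experiment, and for PDGFRB, with at most 19.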
